A study of Mus musculus with 10 samples.

Results

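The genes for mitochondrial ribosomal proteins were followed in wild-type mouse primary mammary epithelial cells cultured with or without biglycan. Members were the rows of the deposited count table whose symbol is Mrps or Mrpl followed by a number and at most 1 letter, which gave 78 of 53167 listed genes, 29 with small subunit symbols (Mrps) and 49 with large subunit symbols (Mrpl). Biglycan (BGN) is an extracellular matrix proteoglycan with leucine-rich repeats, and the series asked which genes change, in the WNT pathway above all, when the protein is added to such cells. The BGN group had 5 libraries from cells given 100 ng/mL of the protein in the medium, and the Control group had 5 libraries from cells given none. All were poly-A selected RNA-seq libraries, with 18292624 to 21820560 counts per library. The labels name neither the length of stimulation nor the mice or cultures behind each replicate, so p-values rest on the spread among these 10 samples alone, and that spread may be technical.

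The mitochondrial ribosome makes the few proteins that the mitochondrial genome encodes, all of them core subunits of the respiratory chain and of ATP synthase. Its RNAs come from the mitochondrial genome, whereas every one of its proteins is encoded in the nucleus, made in the cytosol and imported. Some of these proteins descend from those of the bacterial ribosome and others are found only in mitochondria, and genes of the set are among the textbook targets of the nuclear respiratory factors NRF1 and GABP (an ETS family factor) and of YY1. Symbols do not always match the particle: Mrps18a and Mrps30 encode proteins of the large subunit, and Mrps36 encodes a component of the 2-oxoglutarate dehydrogenase complex outside the ribosome.

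No mitochondrial ribosomal protein gene passed the test for a change with BGN. Of the 78 members, 77 passed the filter on low counts and entered the test over 14415 genes, and 0 of the 77 were called at a Benjamini-Hochberg adjusted p under 0.05 in edgeR's quasi-likelihood test, against 0% of all genes tested. DESeq2 and limma-voom also called 0 members. The smallest adjusted p was 0.945 among the members and 0.883 among all genes. Before adjustment, 1 of 29 small subunit genes and 4 of 48 large subunit genes had a p under 0.05, against 694 of all genes (4.81%). Counts were also simulated with these means and library sizes, with 50 genes changed at each of 1.25-, 1.5-, 2- and 3-fold in the same data. There the same test recovered 78% of genes changed 1.25-fold and 96% of those changed 1.5-fold. The adjusted p of a gene depends on how many other genes change, and 0 were called in the real libraries. These shares therefore do not give the chance of finding a change limited to a few genes.

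The members' intervals were narrow. The 95% interval of the fold change lay wholly within 1.25-fold in either direction for 70 of the 77 (90.9%). By subunit these were 28 of 29 small and 42 of 48 large. The share was 69.5% over all genes tested. It ran from 80% to 100% in the lists, read below, of other nuclear genes tied to mitochondrial translation and expression. Among cytosolic ribosomal protein genes it was 89.3%. The intervals of all 77 members lay within 1.5-fold. The median coefficient of variation over the 10 libraries was 7.39% for the members and 8.04% for all genes tested. Member log2 fold changes of BGN over Control ran from -0.22 for Mrpl27 to 0.12 for Mrps2.

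**Figure D1:**
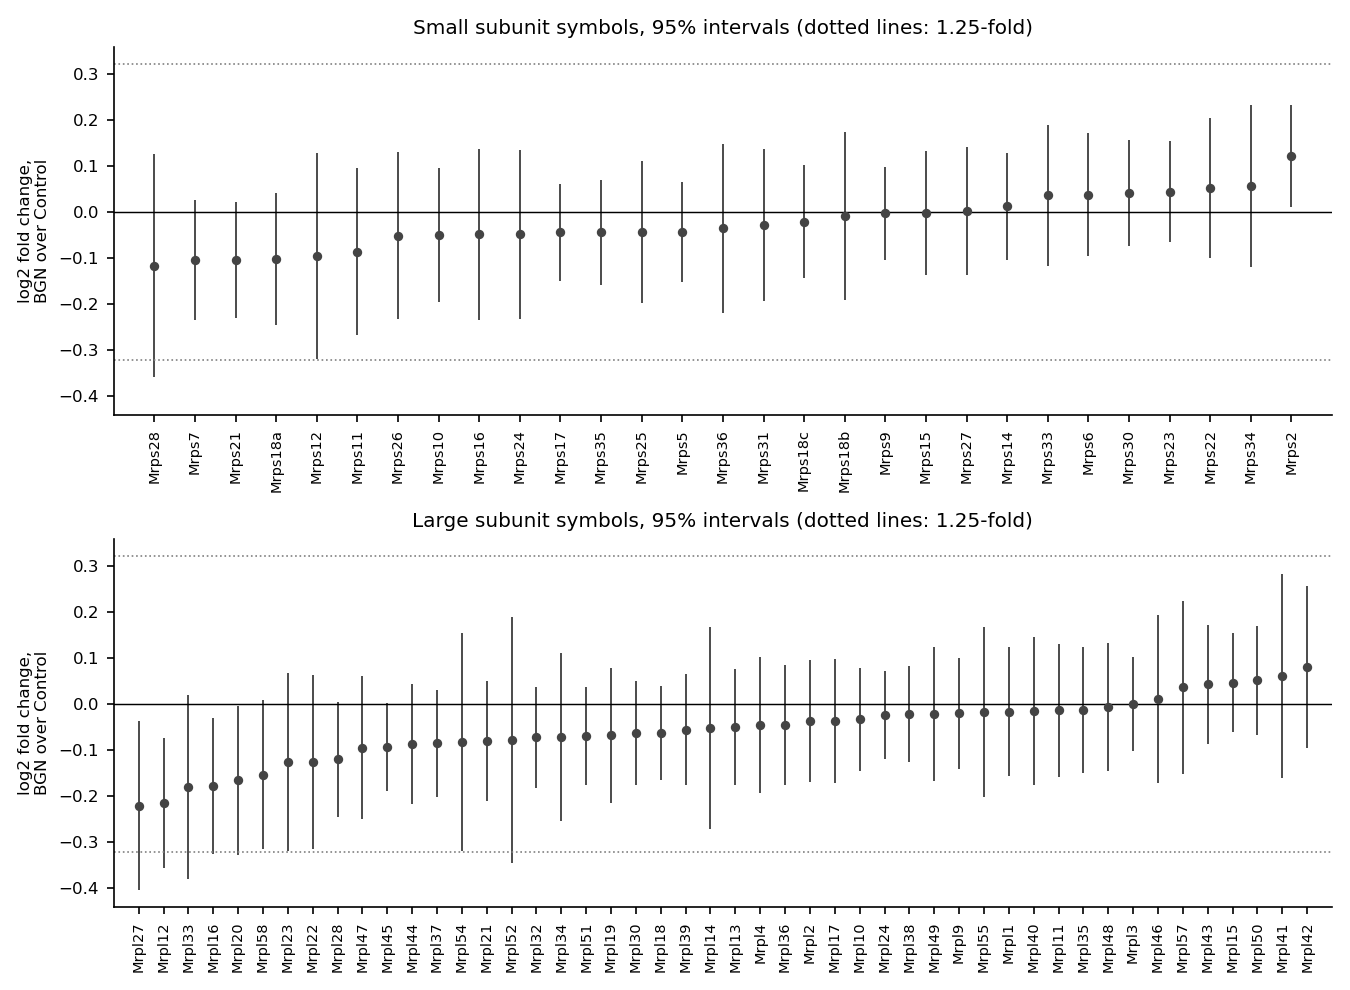
Log2 fold change of BGN over Control (y axis) for each tested member (x axis, ordered by value), small subunit symbols above and large subunit symbols below. Points are edgeR estimates, vertical lines are 95% intervals from 5 libraries per group, and dotted lines mark 1.25-fold. The intervals of 28 of 29 small and 42 of 48 large subunit genes stay between the dotted lines.

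Levels were compared between genes as CPM (counts per 1000000 counts of the library) per kilobase of the main transcript. Each gene's level was its mean over the 10 libraries. The median of these levels over genes was 15.7 CPM per kb for the small subunit and 19.8 for the large subunit, against 8.97 for all genes tested. The ratio of the highest to the lowest level was 18.5 in the small and 20.7 in the large subunit set. Divided by coding length instead, the medians were 35.6 and 40.4 and the ratios of highest to lowest 12.3 and 10.1.

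Among the small subunit genes, Mrps21, the counterpart of bacterial S21, was highest at 71.4 ± 5.28 CPM per kb (SD, n = 10). Mrps6, the counterpart of S6, followed at 50.4 ± 4.04, and Mrps18c, one of 3 mitochondrial paralogues of S18, at 43.2 ± 2.08. These 3 stood apart from each other by more than 1 SD. The lowest per kilobase of transcript were Mrps25 at 3.86 ± 0.336, Mrps26 at 4.03 ± 0.433 and Mrps16, the counterpart of S16, at 5.64 ± 0.585. Mrps25 and Mrps26 did not differ beyond their spread. Over the whole order, 12 of 28 neighbouring pairs of small subunit genes differed by more than the larger of their SDs.

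Among the large subunit genes the highest were Mrpl33 at 70.7 ± 10.1 CPM per kb (SD, n = 10), Mrpl24 at 57.3 ± 2.43 and Mrpl42 at 52.0 ± 5.67. The first 2 are counterparts of bacterial L33 and L24, and Mrpl42 has no bacterial counterpart. The lowest per kilobase of transcript were Mrpl57 at 3.41 ± 0.255, Mrpl17, the counterpart of L17, at 4.92 ± 0.378 and Mrpl35, the counterpart of L35, at 5.81 ± 0.310. Neighbours differed by more than the larger SD in 10 of 47 pairs. The order depended on the length used. Mrps17, for example, ranked 23 among the small subunit genes per kilobase of transcript and 2 per kilobase of coding sequence. By coding length, Mrps25, Mrps26 and Mrps16 ranked 9, 21 and 14 of 29 small subunit genes. Mrpl57, Mrpl17 and Mrpl35 ranked 34, 12 and 29 of 48 large subunit genes. Mrps21 and Mrpl33 were highest by either length.

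**Figure D2:**
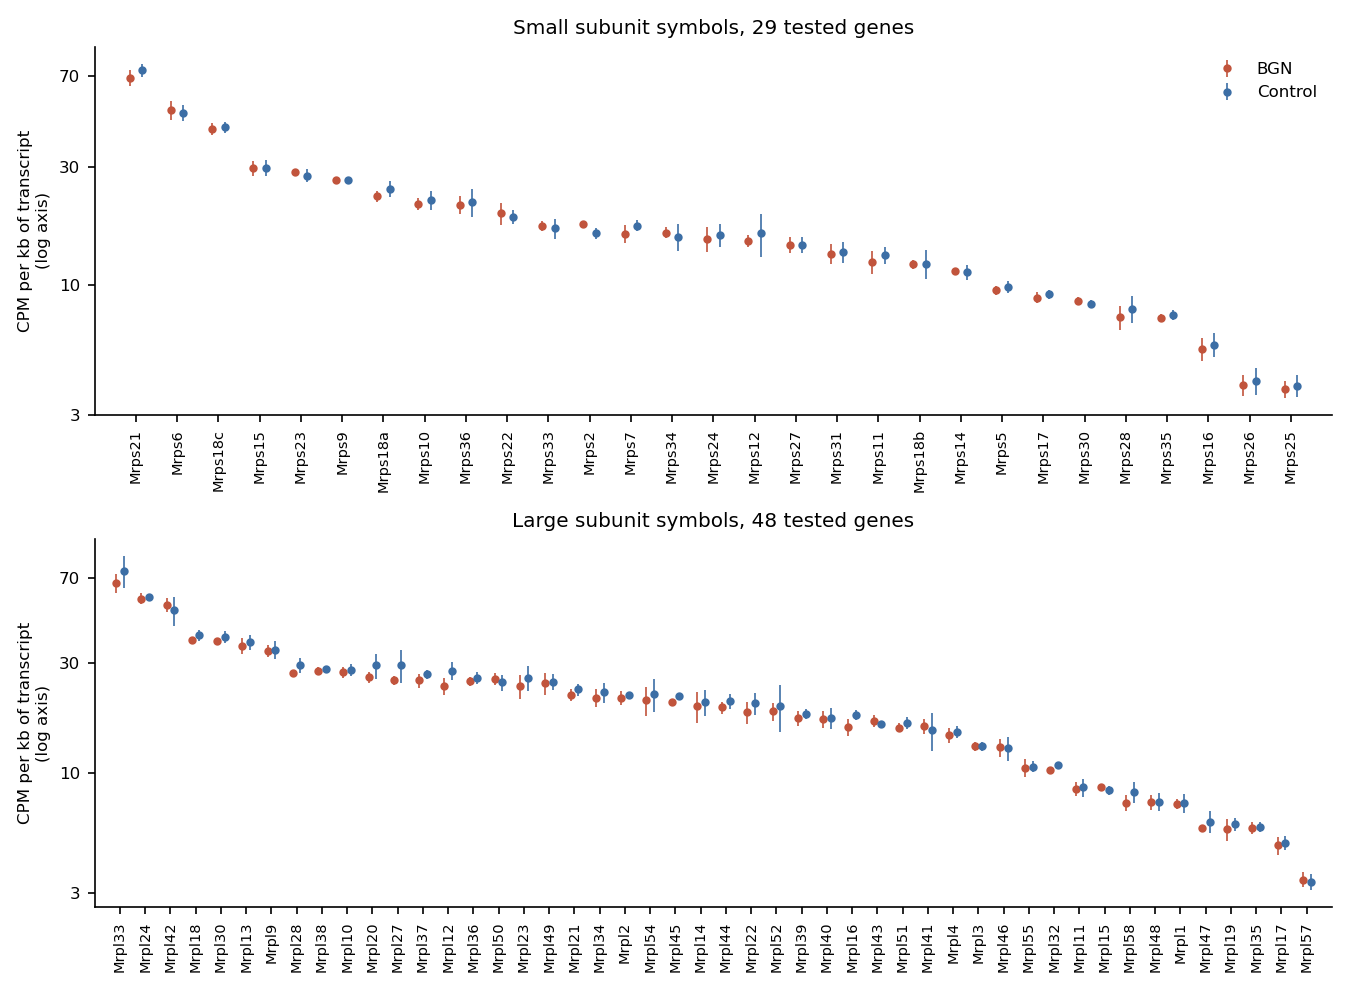
Level of each tested member in CPM per kilobase of transcript (log axis), ordered from highest to lowest within the small subunit symbols (above) and the large subunit symbols (below). Points are means of 5 BGN (red) or 5 Control (blue) libraries and vertical lines are 1 SD. Levels fall from 71.4 to 3.86 in the small and from 70.7 to 3.41 in the large subunit set, and the BGN and Control points of a gene lie close together along the whole order.

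Mrpl53, a mitochondria-specific large subunit protein, was the member that did not pass the filter, with 3 to 12 counts per library. In the mouse annotation used for lengths, 88% of its exon bases are shared with Gm42688 on the same strand, which itself had 13 to 44 counts. Reads from shared bases may not have been assigned to Mrpl53, so its level here is uncertain. Exons shared with other genes on either strand covered 77.8% of Mrps34, whose largest partner was Mapk8ip3 on the opposite strand, and 37% of its exon bases were shared on its own strand. Exons shared with a gene on the opposite strand covered 69.8% of Mrps25 (with Nr2c2), 36% of Mrpl19 (with Gcfc2), 33.4% of Mrpl43 (with Twnk), 30.5% of Mrps18b, 26.3% of Mrpl24 and 24.2% each of Mrps27 and Mrpl47. On the same strand, 23.2% of Mrps18c, 19.9% of Mrps6 and 15.4% of Mrps24 were shared. The strand setting of the counting is not given in the sources used here, and the values of all these genes, and of other members with smaller shared stretches, are uncertain to that extent. Rows with an Mrps or Mrpl symbol that carries the pseudogene ending -ps took few reads: the highest, Mrpl48-ps, had 186 counts over the 10 libraries. Copies under other symbols were not searched.

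Promoters of the members were searched for short motifs, as a description without an enrichment test. RefSeq windows of 300 bases on GRCm38.p6 (250 before the transcript start and 50 after) were matched by symbol for 69 of the 78 members and searched on both strands for 3 short motifs that do not contain one another. The NRF1 motif, GCGCA and GCGC with any 1 base between them, was in 13 of the 69 (18.8%), against 7.17% of protein-coding genes and 11.2% of the genes tested in these libraries. The ETS motif CCGGAAG, the kind GABP binds, was in 26 (37.7%), against 12.9% and 19.8%. The YY1 motif AANATGGCG was in 11 (15.9%), against 3.64% and 5.78%. At least 1 of the 3 was in 42 members (60.9%), against 20.9% of protein-coding genes and 32.1% of tested genes. YY1 matches lay past the start in 9 of the 11 genes, 8 to 36 bases into the transcript. These are matches of letters and not measured binding sites.

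The 150 bases before the start are printed for 4 members whose values are given below, with motif matches in capitals: Mrpl12 had the smallest p of all members, Mrpl45 the only groups that did not overlap, Mrps21 the highest level per kilobase of the small subunit set, and Mrps18a is a small subunit symbol whose protein sits in the large particle. The capitals mark NRF1 matches in Mrpl12, Mrpl45 and Mrps21 and an ETS match in Mrps18a. Mrpl45 has 3 NRF1 matches in its 300 bases, 2 of them in the printed stretch. Past the start, outside the printed stretch, Mrps21 also has an ETS match and Mrps18a a YY1 match. Of the 4 printed members, only Mrpl12 had an unadjusted edgeR p under 0.05. The members besides Mrpl12 with such a p had no NRF1 match. Mrps2, Mrpl16 and Mrpl20 have none of the 3 motifs, and Mrpl27 has an ETS and a YY1 match. The windows are chr11:120484487-120484636 (plus strand) for Mrpl12, chr11:97315566-97315715 (plus) for Mrpl45, chr3:95871515-95871664 (minus) for Mrps21 and chr17:46110854-46111003 (plus) for Mrps18a, all on GRCm38.p6 and written 5′ to 3′.
Mrpl12: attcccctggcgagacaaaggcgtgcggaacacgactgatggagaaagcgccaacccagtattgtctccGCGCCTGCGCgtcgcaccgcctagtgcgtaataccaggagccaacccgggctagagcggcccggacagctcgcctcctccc
Mrpl45: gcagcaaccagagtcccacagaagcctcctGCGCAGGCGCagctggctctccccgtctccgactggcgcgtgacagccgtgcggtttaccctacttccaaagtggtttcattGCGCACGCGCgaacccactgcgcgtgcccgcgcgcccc
Mrps21: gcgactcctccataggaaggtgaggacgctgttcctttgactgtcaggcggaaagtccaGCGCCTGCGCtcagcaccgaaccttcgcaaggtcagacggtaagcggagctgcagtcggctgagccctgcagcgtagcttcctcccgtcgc
Mrps18a: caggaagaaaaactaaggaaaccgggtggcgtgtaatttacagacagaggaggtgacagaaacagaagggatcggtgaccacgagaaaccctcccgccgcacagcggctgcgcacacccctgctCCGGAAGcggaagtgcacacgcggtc

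Many members start next to another coding gene that runs the other way. A coding start on the opposite strand within 500 bases upstream was found for 21 of 69 members (30.4%), against 7.53% of protein-coding genes and 11.9% of the protein-coding genes tested here. Mrps11 and Mrpl46 were the only pair with both partners among the members, and their starts lie 42 bases apart. The stretch between them, chr7:78783090-78783130 on the plus strand of GRCm38.p6, is shown because a small and a large subunit gene share it; none of the 3 motifs is in it.
Mrps11 and Mrpl46: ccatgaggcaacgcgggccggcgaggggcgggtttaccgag

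Several partners also serve mitochondria. Mrpl43 starts 116 bases from Twnk, the mitochondrial DNA helicase, Mrps12 starts 147 bases from Sars2, the mitochondrial seryl-tRNA synthetase, and Mrpl47 starts 308 bases from Ndufb5, a complex I subunit. None of the partners was called. Their log2 fold changes ran from -0.21 for Eme1, a nuclease subunit that starts 48 bases from Mrpl27, to 0.12 for Hira, a histone chaperone that starts 113 bases from Mrpl40. Ndufb5 stood at -0.12 beside -0.094 for Mrpl47, and Fau, which encodes a cytosolic ribosomal protein and starts 192 bases from Mrpl49, stood at -0.15 beside -0.022 for Mrpl49. The partner genes named here were chosen after their values were seen.

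The comparison of BGN with Control is given by subunit, starting with the small subunit. Of 29 genes, 20 (69.0%) had an estimate below 0, against 52% of all genes, and the median log2 fold change was -0.036, against -0.0040 over all genes tested. The median main transcript of these 29 genes was 1197 bases. By transcript length, the share of all genes below 0 was 67.1% under 1000 bases, 63.7% at 1000 to 2000 and 46.2% over 2000. The 1 gene with an unadjusted p under 0.05 was on the higher side, where 2.43% of all genes fell.

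Mrps2, the counterpart of bacterial S2, had that p. It read 35.2, 37.3, 35.6, 38.1 and 37.0 CPM in BGN replicates 1 to 5 and 35.7, 31.99, 33.3, 35.2 and 32.4 CPM in Control replicates 1 to 5. The groups overlapped, with Control 1 and Control 4 inside the BGN range. The means were 36.6 ± 1.23 and 33.7 ± 1.67 CPM (SD, n = 5), which gave a log2 fold change of 0.12 (95% interval 0.010 to 0.23). The unadjusted edgeR p was 0.034 and the adjusted p 0.945.

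The other small subunit genes of smallest p had estimates below 0. Mrps21 read 34.2, 32.6, 34.8, 36.5 and 29.9 CPM in BGN and 39.3, 35.5, 34.7, 33.7 and 37.2 CPM in Control, and the log2 fold change was -0.10. The lowest value was in BGN 5, the highest in Control 1, and the groups overlapped. Mrps7, which encodes the counterpart of S7, a protein that starts assembly of the 3′ domain of the bacterial small subunit, read 32.2, 28.4, 31.0, 31.0 and 36.0 CPM in BGN and 36.8, 32.5, 32.6, 34.0 and 35.0 CPM in Control. Its estimate was -0.11, although BGN 5 was above 4 of the 5 Control libraries. Mrps28 had the lowest counts of the 5, 5.80 ± 0.652 CPM with BGN and 6.30 ± 0.770 CPM without (SD, n = 5), and the widest interval of any small subunit gene, -0.36 to 0.13.

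The 3 mitochondrial paralogues of S18 derive from the same bacterial protein. Mrps18a, which sits in the large particle, read 20.2 ± 1.02 CPM in BGN and 21.7 ± 1.68 CPM in Control (SD, n = 5). Mrps18b read 13.1 ± 0.543 and 13.2 ± 1.72 CPM, and Mrps18c read 27.3 ± 1.41 and 27.8 ± 1.37 CPM. None differed between groups beyond its spread, with 95% intervals of -0.25 to 0.040, -0.19 to 0.17 and -0.15 to 0.10 on the log2 scale.

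Genes chosen for their role gave similar values. Mrps12, the counterpart of the decoding centre protein S12, read 13.4 ± 0.790 CPM in BGN and 14.3 ± 2.88 CPM in Control (SD, n = 5), and its estimate of -0.096 became 0.0075 without Control 5. Mrps27, a pentatricopeptide repeat protein, was at 27.0 ± 2.00 and 27.0 ± 2.09 CPM. Mrps30, of the large particle, was at 28.8 ± 1.09 and 28.0 ± 0.905 CPM, and Mrps36, of 2-oxoglutarate dehydrogenase, at 14.8 ± 1.23 and 15.2 ± 1.92 CPM. In these 4 genes the groups overlapped and the 95% intervals included 0.

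In the large subunit, 40 of 48 tested genes (83.3%) had an estimate below 0 and the median log2 fold change was -0.051. Their median main transcript was 1327.5 bases, and 63.7% of all genes with a transcript of 1000 to 2000 bases were below 0. The 4 genes with an unadjusted p under 0.05, Mrpl12, Mrpl27, Mrpl16 and Mrpl20, were all on the lower side, where 2.38% of all genes fell.

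Mrpl12, the counterpart of the L7/L12 stalk protein that recruits translation factors, had the smallest p of the members. It read 33.5, 27.0, 30.9, 33.3 and 32.1 CPM in BGN replicates 1 to 5 and 38.7, 34.2, 32.7, 36.1 and 40.7 CPM in Control replicates 1 to 5. BGN 2 was lowest and Control 5 highest, and the groups overlapped only through Control 3. The means were 31.4 ± 2.66 and 36.5 ± 3.26 CPM (SD, n = 5), a log2 fold change of -0.21 (95% interval -0.36 to -0.073). The unadjusted edgeR p was 0.0046 and the adjusted p 0.945. Mrpl10, whose bacterial counterpart anchors the stalk, averaged 46.7 ± 2.60 CPM with BGN and 47.8 ± 2.84 CPM without (SD, n = 5), with an estimate of -0.033.

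Mrpl27 is the counterpart of L27, which reaches into the peptidyl transferase centre. It read 18.6, 18.2, 18.8, 18.9 and 20.5 CPM in BGN and 22.02, 18.3, 21.5, 20.9 and 28.2 CPM in Control. Control 5 stood above all other libraries and Control 2 lay among the BGN values. The log2 fold change was -0.22, and it was -0.12 without Control 5.

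Mrpl16, the counterpart of L16, also lies near the peptidyl transferase centre. It read 18.04, 19.4, 16.0, 18.00 and 20.2 CPM in BGN and 20.6, 20.7, 19.3, 21.2 and 21.9 CPM in Control, and the log2 fold change was -0.18. The groups overlapped through Control 3 and 2 of the BGN libraries. Mrpl20, whose bacterial counterpart L20 is needed early in assembly of the large subunit, read 18.7, 20.7, 18.7, 20.4 and 20.8 CPM in BGN and 26.5, 19.9, 23.7, 20.3 and 21.2 CPM in Control. Control 1 was highest, and the log2 fold change of -0.17 became -0.099 without it.

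Mrpl45, a mitochondria-specific protein at the tunnel exit that helps to hold the ribosome at the inner membrane, was the only member whose groups did not overlap, 1 of 77 against 0.728% of all genes tested (0.354% with BGN lower and 0.375% with BGN higher). It read 50.3, 48.8, 50.2, 46.8 and 49.7 CPM in BGN and 54.6, 52.9, 52.5, 50.3 and 51.9 CPM in Control. The highest BGN and the lowest Control value both rounded to 50.3 CPM, so the gap was small. The means were 49.1 ± 1.46 and 52.4 ± 1.55 CPM (SD, n = 5), a log2 fold change of -0.094 (95% interval -0.19 to 0.0022).

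Other large subunit genes fixed by role did not differ beyond their spread. Mrpl3, the counterpart of L3, averaged 51.7 ± 2.38 CPM with BGN and 51.7 ± 2.15 CPM without (SD, n = 5). Mrpl44, which carries an RNase III-like domain, was at 27.3 ± 1.62 and 29.0 ± 2.12 CPM. Mrpl58, a peptidyl-tRNA hydrolase built into the large particle, was at 19.2 ± 1.58 and 21.4 ± 2.22 CPM, with a 95% interval of -0.32 to 0.0080 on the log2 scale.

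**Figure D3:**
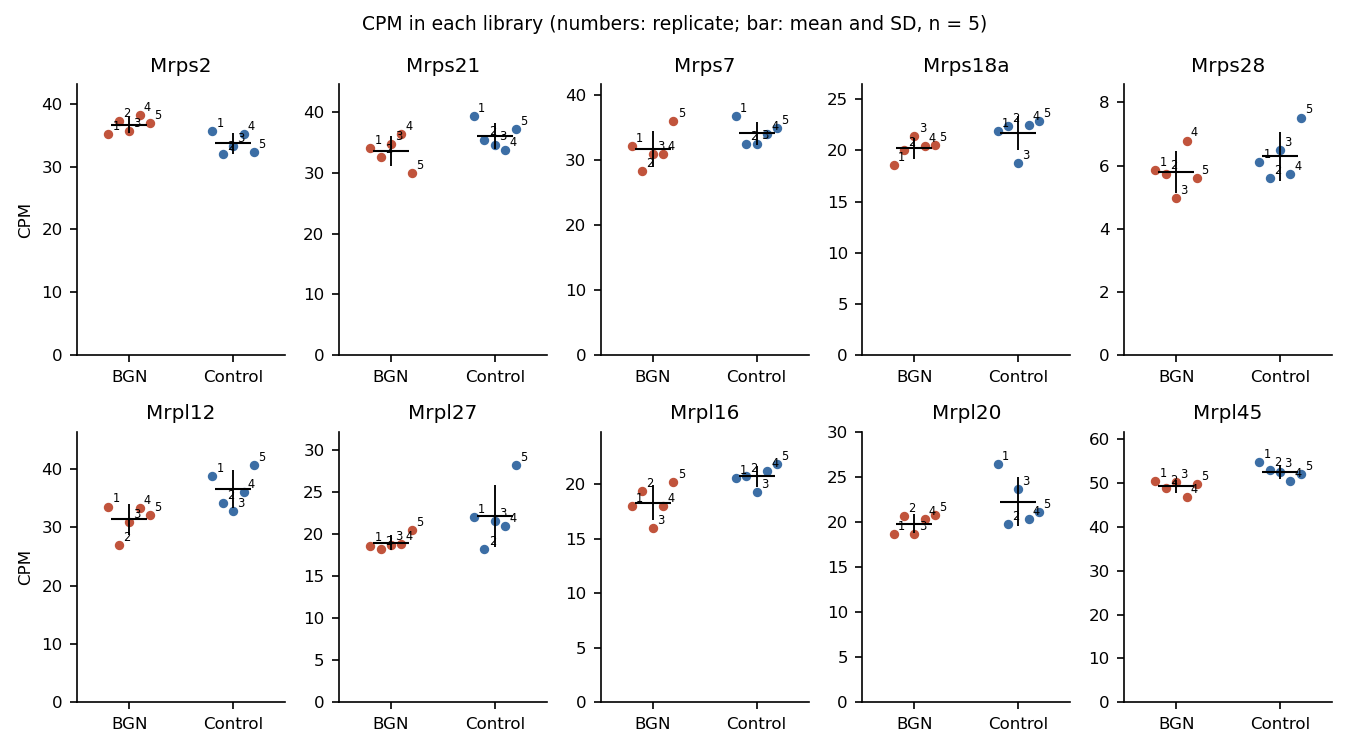
CPM in each library (y axis from 0) for the 5 small subunit genes (above) and the 5 large subunit genes (below) of smallest p. Points are single libraries of the BGN (red) and Control (blue) groups with their replicate number, and the black cross gives the mean and SD (n = 5). The groups overlap in 9 of the 10 genes and meet almost at the same value in Mrpl45.

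Members were also split by whether the nomenclature of ribosomal proteins gives them a bacterial counterpart, and in that split Mrps18a and Mrps18b, which are paralogues of Mrps18c, counted as mitochondria-specific. In the small particle, 13 of 16 genes with a bacterial counterpart had an estimate below 0 (median -0.047), and 5 of 10 mitochondria-specific genes did (median -0.0036). In the large particle the counts were 27 of 29 (median -0.062) and 14 of 21 tested (median -0.022). With all S18 paralogues counted as having a bacterial counterpart, a split chosen after the values were seen, 14 of 17 (median -0.045) and 4 of 9 (median 0.0017) were below 0 in the small particle, and 28 of 30 (median -0.063) and 13 of 20 (median -0.020) in the large. No difference between these classes was tested. Placing Mrps18a and Mrps30 with the large subunit and leaving out Mrps36 gave medians of -0.037 and -0.051, close to those by symbol.

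The members deviated together within libraries. The mean deviation of the members from their own means over the 10 libraries, in log2 units, was -0.053, -0.050, -0.033, 0.025 and 0.053 for the small subunit genes in BGN 1 to 5 and 0.085, -0.051, -0.036, 0.050 and 0.011 in Control 1 to 5. For the large subunit genes it was -0.086, -0.048, -0.050, 0.0039 and 0.042 in BGN and 0.12, -0.058, -0.027, 0.030 and 0.074 in Control. Control 1 was highest in both subunits and BGN 1 lowest, but BGN 4 and BGN 5 lay above Control 2 and Control 3, so the groups overlapped in both. In Control 1, 88.3% of the 77 members were above their own mean, and in BGN 1, 19.5%.

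The medians depended on these libraries. Without Control 1 the median log2 fold change was -0.011 for the small and -0.027 for the large subunit, and without BGN 1 it was -0.0081 and -0.033. Leaving out Control 5 gave -0.021 and -0.033. The small subunit median was also -0.017 without BGN 2, -0.017 without Control 4 and -0.022 without BGN 4. It stayed below 0 in both subunits whichever single library was left out. All members together made up 0.208% to 0.225% of the counts in BGN libraries and 0.212% to 0.232% in Control libraries.

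**Figure D4:**
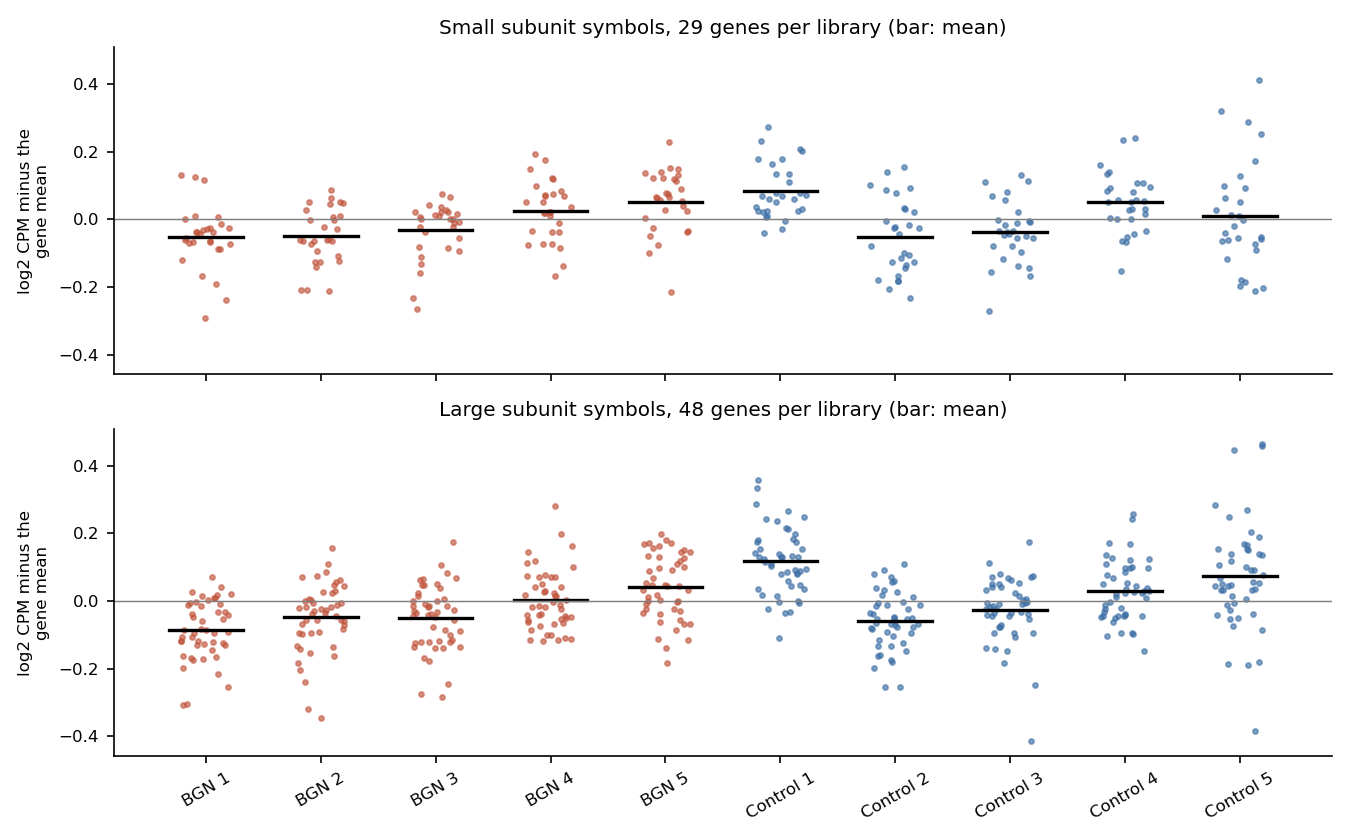
Log2 CPM of each tested member minus its own mean over the 10 libraries (y axis), by library (x axis), for the small subunit symbols (above, 29 genes) and the large subunit symbols (below, 48 genes). Points are genes, spread sideways for legibility, and black bars are library means. The bar of Control 1 is highest in both panels (0.085 and 0.12), and the bars of Control 2 and Control 3 lie below 0 with those of BGN 1, BGN 2 and BGN 3.

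Values were also split by transcript length. The median main transcript of the tested members was 1316 bases, against 2851 for all genes tested. Members under 1000 bases had a median log2 fold change of -0.067 (24 genes), those of 1000 to 2000 bases -0.031 (28 genes) and those over 2000 bases -0.044 (25 genes). Over all genes tested in the same length ranges, the medians were -0.052, -0.029 and 0.0065. Estimates below 0 made up 83.3%, 78.6% and 72.0% of the members in these 3 ranges, against 67.1%, 63.7% and 46.2% of all genes. The part of transcript length in the members' values was not tested. Once the trend of each library on transcript length and GC content was removed, the members' medians were -0.0074 for the small and -0.020 for the large subunit, and 15 of 29 and 28 of 48 estimates were below 0. Over all genes, 50.3% of estimates were then below 0.

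The genes of the cytosolic ribosome, which are short and abundant, stood apart in 2 of the same libraries. Of 84 tested genes named Rps or Rpl, 82 had an estimate below 0 (median -0.081) and 0 were called. Their mean deviation was 0.16 in Control 1 and 0.15 in Control 5 and lay between -0.081 and -0.018 in the other 8 libraries. Their part in the members' values was not tested.

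**Figure D5:**
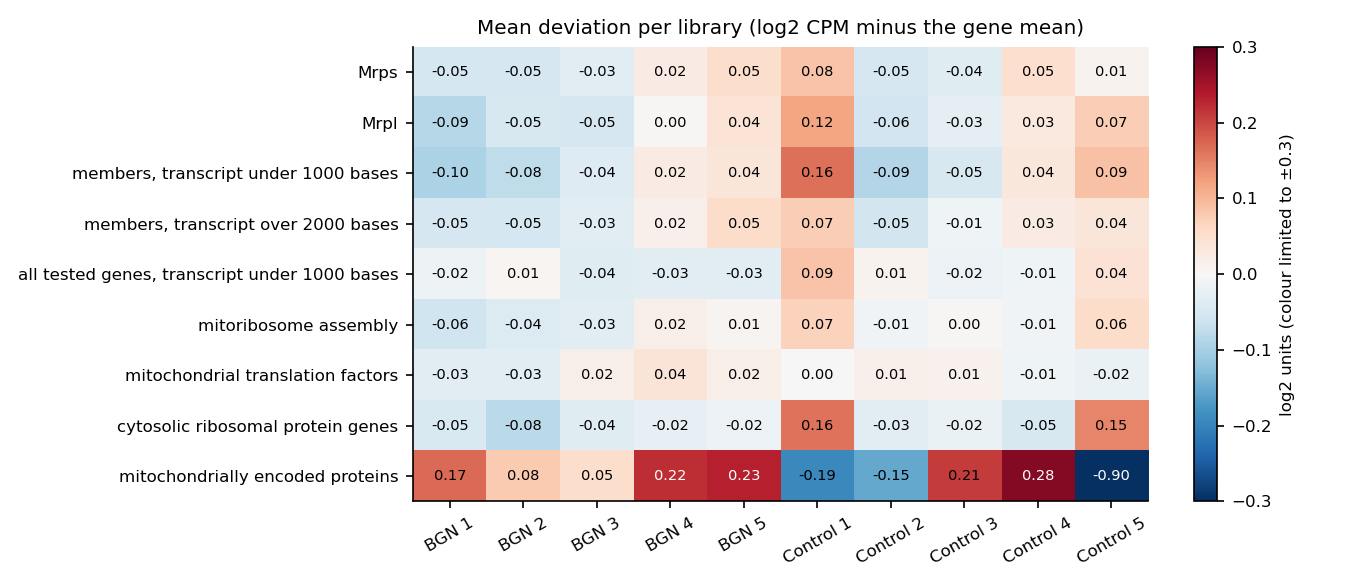
Mean deviation of gene lists (rows) in each library (columns), as log2 CPM minus the gene mean over the 10 libraries, with the value printed in each cell and the colour scale limited to 0.3 in either direction. Control 1 is high for both subunits and for the cytosolic ribosomal protein genes (0.16), Control 5 is at -0.90 for the mitochondrially encoded proteins, and the mitochondrial translation factors stay near 0 in every library.

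The other subunits of the mitochondrial ribosome carry names outside the Mrps and Mrpl series. Dap3, a small subunit protein that binds GTP, averaged 64.2 ± 1.58 CPM with BGN and 65.0 ± 5.07 CPM without (SD, n = 5). Ptcd3, a pentatricopeptide repeat protein of the small subunit, was at 59.6 ± 5.46 and 57.3 ± 3.79 CPM, with a log2 fold change of 0.058. Chchd1 and Aurkaip1 of the small subunit had estimates of -0.064 and -0.091, and Gadd45gip1 of the large subunit -0.13. None of these 5 genes was called and 4 had estimates below 0 (median -0.064).

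Factors that build the ribosome or work with it were read from lists, and 0 genes were called in any of them. Of 25 assembly factors, 19 had estimates below 0 (median -0.028). The 2 of smallest p were Ngrn, needed for stability of the large subunit RNA, 22.2 ± 1.89 CPM with BGN and 24.7 ± 2.48 CPM without (SD, n = 5), and Mrm1, a methyltransferase of that RNA, with an estimate of -0.18. Of 14 translation factors, 7 were below 0 (median -0.0062), with Taco1, a translational activator of COX1, at 0.096 and Guf1, the mitochondrial EF4, at 0.076. The Guf1 estimate was -0.0063 without BGN 2.

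Of 19 mitochondrial aminoacyl-tRNA synthetase genes, 13 had estimates below 0 (median -0.036). Wars2, for tryptophan, read 16.6, 18.2, 16.1, 17.2 and 19.0 CPM in BGN and 15.7, 16.1, 15.4, 15.6 and 15.2 CPM in Control, and the log2 fold change was 0.16. Of the BGN libraries, 4 were above every Control library and BGN 3 was just below Control 2. Vars2, for valine, had an estimate of -0.13. Of 15 genes of mitochondrial transcription, replication and RNA stability, 9 were below 0 (median -0.0067). Polg2, the accessory subunit of the mitochondrial DNA polymerase, averaged 6.11 ± 0.557 CPM with BGN and 7.20 ± 0.932 CPM without (SD, n = 5), and Tfb2m, a transcription initiation factor, at 33.2 ± 1.31 and 31.1 ± 1.71 CPM.

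The transcription factors tied to these genes did not differ between groups beyond their spread. Nrf1 averaged 39.2 ± 2.53 CPM with BGN and 39.2 ± 3.02 CPM without (SD, n = 5), Gabpa at 128 ± 3.71 and 129 ± 8.69 CPM, and Yy1 at 205 ± 1.73 and 205 ± 3.26 CPM. Their 95% intervals on the log2 scale were -0.12 to 0.13, -0.10 to 0.084 and -0.076 to 0.071. Esrra, a nuclear receptor that drives mitochondrial genes, had an estimate of -0.12, Gabpb2, a GABP subunit, 0.071 and the coactivator Ppargc1a 0.086. None of the 10 regulators was called and 4 had estimates below 0 (median 0.010). Members split by promoter gave medians of -0.055 with an NRF1 match (13 genes), -0.052 with an ETS match (25 tested) and -0.049 with a YY1 match (11), against -0.029 for the 27 with none of the 3. Estimates below 0 made up 92.3%, 72.0% and 72.7% of these motif sets, against 77.8% with none. Some genes are in more than 1 motif set, and no difference between the sets was tested.

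The RNAs that the mitochondrial ribosome translates and contains were read as well. All 13 mitochondrially encoded protein genes had estimates above 0 (median 0.26), against 6921 of 14415 genes tested, and 0 were called. Control 5 was lowest, at -0.90 in mean deviation. These genes took 1.11% of counts in Control 5, 1.75% in Control 1 and 1.85% in Control 2. They took 2.07% to 2.22% in the other libraries. For mt-Nd4, a complex I subunit, the log2 fold change was 0.33 with all libraries and 0.19 without Control 5, and for mt-Co2, a complex IV subunit, 0.30 and 0.20. The ribosomal RNAs mt-Rnr1 and mt-Rnr2 were at 144 ± 30.02 and 398 ± 48.8 CPM in BGN and at 140 ± 28.7 and 370 ± 31.2 CPM in Control (SD, n = 5). Poly-A selection captures these RNAs only in part, so their levels are not those of the RNA in the ribosome.

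The labelled cell type was checked by its markers. The 6 epithelial markers were high in every library, from 525.9 CPM for Krt18 at its lowest to 4322 CPM for Krt14 at its highest, and summed to 8243 to 8686 CPM in BGN and 8274 to 9681 CPM in Control. Of these 6 genes, 5 had an estimate below 0 (median log2 fold change -0.064), and their mean deviation was highest in Control 5 (0.12) and Control 1 (0.056), the libraries in which the large subunit genes also lay highest. Their part in the members' values was not tested. The lymphocyte markers Cd3e, Cd3g, Cd2 and Ms4a1 had 0 counts in every library, as did the myeloid markers Adgre1 and Tyrobp, while Cd14 read 380 to 446 CPM. Fibroblast markers summed to 46.4 to 52.8 CPM in BGN and 40.4 to 59.4 CPM in Control, most of it Pdgfra, and endothelial and adipocyte markers summed to at most 6.45 and 3.82 CPM. In bulk RNA, fewer cells of a type and less RNA per cell cannot be told apart.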

How the data were processed

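Poly-A RNA-seq libraries of cultured mouse primary mammary epithelial cells were compared, 5 with BGN and 5 Control, grouped by their titles. The deposited table holds unnormalized counts of reads for each gene symbol. The submitters' processing notes list the build GRCm39 and, among tools, HISAT2 2.2.1, cutadapt 1.9.1, HTSeq, FastQC and DESeq2. Which annotation was counted, and with what strand setting, is not given in the sources used here.

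The members and gene lists were chosen with earlier results of these data known. Of 53167 listed genes, 26531 had counts. The fit used edgeR 4.0.16 under R 4.3.3: filterByExpr, TMM scaling and the robust quasi-likelihood test, with no covariates. P-values were adjusted by Benjamini-Hochberg over the 14415 genes tested, and a gene was called at an adjusted p under 0.05. CPM used TMM-scaled library sizes, and deviations used log2 CPM with a prior count of 2. The biological coefficient of variation was 6.85%. Totals of 18292624 to 21820560 counts limit the precision of low genes, and every pair of libraries differed by more than counting noise (chi-square per degree of freedom at least 2.43, genes of at least 50 counts).

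Transcript length, GC content and exon overlaps came from a GENCODE annotation of GRCm38 by symbol (97.7% of tested genes had a value), and promoters from RefSeq on GRCm38.p6. No coordinates were converted. Genes were named by rule: the 5 members of smallest p and the 3 highest and 3 lowest by level per length in each subunit, members failing the filter, members and regulators fixed by role, and the 2 genes of smallest p in each other list. Alternatives were other scalings, filters and tools (DESeq2 1.42.0, limma 3.58.1), removal of the length and GC trend, leaving out libraries, a replicate block, and other assignments to a subunit. The fit was tested on simulated data for 14308 genes, where 13 unchanged genes were called.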

Additional observations from a re-analysis of the deposited data

Results flagged for a closer look

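Within each group of 5 libraries, the highest or lowest CPM of each named gene, and the highest or lowest mean deviation of each subunit, was compared with its nearest neighbour, and 7 of 112 groups had a library set apart by more than the 95% limit of Dixon's test. Chance sets apart about 1 in 20 groups. Mrpl27 was at 20.5 CPM in BGN 5, with the other BGN libraries at 18.2 to 18.9. Mrps6 was at 49.8 CPM in BGN 5, with the others at 40.3 to 42.7, and Aurkaip1 at 28.5 CPM in BGN 5, with the others at 25.6 to 26.1. Mrpl35 was at 19.3 CPM in BGN 1, below the other BGN libraries at 21.7 to 22.3. Guf1 was at 38.9 CPM in BGN 2, above the others at 28.5 to 30.4. Among Control libraries, Mrpl33 was at 45.7 CPM in Control 5, above the others at 32.4 to 35.6, and Mrps18a at 18.7 CPM in Control 3, below the others at 21.9 to 22.8. BGN 5 is the library set apart for Mrpl27, Mrps6 and Aurkaip1. Without Control 5, the log2 fold change of Mrpl33 was -0.079 in place of -0.18.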

How the results depend on the processing

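No member was called under any alternative. Over all genes, 0 were called in each alternative but one: with no filter on low counts 3 genes were called, and no member among them. Median log2 fold changes stayed below 0 in every alternative, from -0.0443 to -0.00813 for the small and from -0.0737 to -0.0272 for the large subunit when single libraries were left out, and -0.0074 and -0.020 once the length and GC trend was removed. The small subunit median was -0.022 with limma-voom. With transcript length replaced by coding length the median levels were 35.6 and 40.4 CPM per kb in place of 15.7 and 19.8. Same-numbered libraries correlated weakly (from -0.031 to 0.27), and a BGN library matched best with its own number only for replicate 2. The labels do not name mice or cultures, so these correlations cannot settle whether samples were paired. With the replicate block the medians were -0.034 and -0.054 and 0 members were called. For single genes, 996 of 1060 values kept their direction and 64, in 22 genes none of which was called, did not. The cause was not tested. With the trend removed, Mrpl10 read 0.0031, Mrpl24 0.0067, Mrps18b 0.037, Mrps18c 0.019, Mrps36 0.0042 and Mrpl3 -0.017. With upper-quartile factors Mrpl3 read -0.00096, Mrps27 -2.1e-05 and Nrf1 -0.0011, and with library totals alone -0.0033, -0.0022 and -0.0034. With the replicate block, Mrps27 read -0.00016 and Nrf1 -4.1e-05. With limma-voom and quality weights Dap3 read 0.0036, Mrpl3 -0.0074, Mrps27 -0.022 and Nrf1 -0.013. Without BGN 5 and Control 5 together, Mrpl35 read 0.0083, Mrpl3 -0.023, Mrpl42 -0.021, Mrps27 -0.030, Nrf1 -0.0086 and Ptcd3 -0.034. When single libraries were left out, estimates ran from -0.047 to 0.020 for Dap3, -0.038 to 0.015 for Gabpa, -0.0063 to 0.12 for Guf1, -0.074 to 0.015 for Mrpl17, -0.033 to 0.025 for Mrpl35, -0.024 to 0.025 for Mrpl3, -0.0040 to 0.071 for Mrpl57, -0.17 to 0.0075 for Mrps12, -0.053 to 0.053 for Mrps18b, -0.086 to 0.014 for Mrps25, -0.10 to 0.020 for Mrps26, -0.042 to 0.035 for Mrps27, -0.086 to 0.031 for Mrps36, -0.019 to 0.063 for Mrps6, -0.034 to 0.034 for Nrf1, -0.0079 to 0.0024 for Yy1 and -0.064 to 0.16 for mt-Rnr1. At these depths a gene with few counts has a wide interval: that of Mrps28, with 98 to 140 counts per library, reached from -0.36 to 0.13.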
